A study of Homo sapiens with 2 samples.

Results

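A YB-1 crosslink cluster is a short stretch of the genome where PAR-CLIP reads pile up and carry T-to-C changes. The clusters described here are those in which the authors' caller counted 2 or more crosslinked positions, meaning T bases read as C often enough to be called. They were chosen by that count alone, separately in each of the 2 replicates. Rep.A held 191 of them among 1382 clusters (13.8%), and Rep.B held 291 among 2011 (14.5%), so 482 of all 3393 clusters qualified. The remaining 1191 and 1720 clusters, with 1 crosslinked position each, served as the comparison.

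In PAR-CLIP, cells take up 4-thiouridine, long-wave ultraviolet light links it to bound protein, and reverse transcription then reads the linked base as C. YB-1, encoded by YBX1, is a cold shock domain protein that coats mRNA and influences its translation and stability, and its cold shock domain is known to bind the motifs CATC and CACC (T stands for U in RNA). RNase T1, used to trim the RNA around the protein, cuts after G.

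Both libraries came from wild-type HEK293T, an established line derived from human embryonic kidney, treated with 100 µM 4-thiouridine for 16 h and irradiated with 0.15 J/cm2 at 365 nm before precipitation with antibodies against YB-1. Rep.A and Rep.B were independent replicates of this 1 condition. No library without antibody or without crosslinking was analysed here, and expression is not in the tables, so no value below separates binding from RNA abundance. Mean coverage (reads per base over the cluster) is not scaled for depth. Mean coverage times width, added up over all clusters, came to 1117330 sequenced bases for Rep.A and 3459530 for Rep.B. A genome base counts again for every read over it, so these sums are not the extent of the clusters.

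The table gives only the number of crosslinked positions in a cluster, so which T bases were linked is known only where every T counts. Rep.A had 4 such clusters and Rep.B had 10, all with 2 or 3 T bases. They are shown because they are the only clusters with several linked bases in which these can be marked. A cluster of Rep.B at chr15:20180021-20180079, with all 3 of its T bases linked, is not printed because it is 59 bases long. It lay outside annotated genes, held a run of A and was not found again. Sequences run 5′ to 3′ along the RNA strand on hg38, with the crosslinked T bases in capitals.
YBX3, chr12:10699584-10699607, minus strand: ccacaaccTTaaccaacaccaaag
ID2, chr2:8683711-8683737, plus strand: cacaacaacaacaacaacaaaTTcacg
RACK1P1, chr5:108785156-108785180, plus strand: aagaccaaccacaTTggccacacag
SMC1A, chrX:53412178-53412198, minus strand: aacaccTcccacaaaaTcaag
RBM27, chr5:146237299-146237319, plus strand: accaccTaTaacacaaTcaag
HNRNPK, chr9:83972952-83972972, minus strand: aacacTcaaaccaccaTcaag
RPL15P8, chr4:128069158-128069178, minus strand: aTcaccaaaccagTccacaag

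The linked T bases were neighbours in YBX3, ID2 and RACK1P1, whereas in SMC1A they lay 10 bases apart. The YBX3, ID2, SMC1A and RACK1P1 sites had both T bases crosslinked in both replicates. YBX3 encodes YB-3, the close relative of YB-1, and its site lay in the 3′ UTR with a mean coverage of 43.2 in Rep.A and 120.5 in Rep.B. The ID2 site, also in a 3′ UTR, had 21 and 63. ID2 is an inhibitor of basic helix-loop-helix transcription factors. SMC1A encodes a cohesin subunit, and its coding sequence site was covered at 12 and 40.0. The site in RACK1P1, a pseudogene, had 16.0 and 14, so it alone of these 4 was not covered more deeply in Rep.B. In RBM27, which encodes an RNA-binding protein, 2 of the 3 T bases were linked in Rep.A and all 3 in Rep.B. HNRNPK, the gene of a nuclear RNA-binding protein, had both T bases linked in Rep.B and 1 position at the overlapping Rep.A cluster. The RACK1P1 and HNRNPK sequences each occurred 2 times in the genome. The RPL15P8 sequence was also that of 2 other clusters of Rep.B, in RPL15P19 and ENSG00000261813, and it occurred 11 times in the genome, so its reads cannot be placed.

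Most clusters with 2 or more positions had T bases to spare. The sites below had 2 or more positions in both replicates, a sequence found once in the genome and at most 30 bases. They were taken in order of their positions summed over both replicates, then of coverage, and are shown to make visible what such sites look like. A site in the long non-coding RNA gene ENSG00000253190 also qualified and is named only, and those of RBM27 and YBX3 are above. CATC and CACC are in capitals.
UHMK1, chr1:162499975-162499996, plus strand: acaatccacttttctccaaatg
EXO1, chr1:241860592-241860615, plus strand: gccaacaataccttcctctatcag
NFAT5, chr16:69701987-69702008, plus strand: ctattccagctccttaccacag
CACYBP, chr1:175010535-175010555, plus strand: accccttattacCACCttaag
ATP5F1C, chr10:7800058-7800079, plus strand: ccCATCttttcccttaataccg
EEF2, chr19:3976226-3976247, minus strand: tccaaactaattttaacaaacg
SNHG3, chr1:28508007-28508031, plus strand: acctatactcaaacctatactccag
YY1, chr14:100281718-100281738, plus strand: ctCATCCACCccaaattactg
RPL6, chr12:112405963-112405985, minus strand: cattgccacttcaaccaaaatcg
KPNB1, chr17:47677068-47677090, plus strand: caatccaaCATCatacctttctg
PSMA5, chr1:109409963-109409986, minus strand: cttcactCATCATCctcaaacaag
CGGBP1, chr3:88055481-88055502, minus strand: aatcaactcctcaactcacaag
WDR82, chr3:52259773-52259794, minus strand: ctCATCctcatttcCACCaacg

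Apart from that of SNHG3, a long non-coding RNA gene, the sites printed here lay in exons of protein-coding genes. Those of NFAT5, CACYBP, EEF2 and YY1 were in 3′ UTRs, and those of UHMK1 (exon 2), EXO1 (exon 9), ATP5F1C (exon 6), RPL6 (exon 6), KPNB1 (exon 18), PSMA5 (exon 8), CGGBP1 (exon 1) and WDR82 (exon 6) were in coding sequence. YY1 encodes a zinc finger transcription factor and had 32.1 reads per base in Rep.A and 72 in Rep.B. KPNB1, the gene of the nuclear import receptor importin beta, had 30 and 65. PSMA5, a proteasome subunit gene whose site carries overlapping copies of CATC, had 30.7 and 60.6. WDR82 had 20.7 and 84.9, and each of these 13 sites was covered more deeply in Rep.B.

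The sites shown were rich in C and A, and each ended in G. Among all clusters, the last base was G in 84.3% of those with 2 or more positions and 83% of those with 1 in Rep.A, and in 82.5% and 76.9% in Rep.B. A larger difference was seen before the last base. No other G was present in 65.4% of the Rep.A clusters with 2 or more positions against 52.4% of those with 1, a difference of 13.1 percentage points (95% interval 5.51 to 20.0). In Rep.B the shares were 65.3% and 46.4%, a difference of 18.9 points (12.8 to 24.6). All intervals given here are Wilson intervals for a share and Newcombe intervals for a difference. They cover counting error only, since copies made by PCR cannot be told from separate molecules, and clusters that share a sequence are not independent.

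The count itself fixed other columns. Clusters with exactly 2 positions, 185 in Rep.A and 269 in Rep.B, had a median crosslinking efficiency (positions over T bases) of 0.33 in both replicates, and those with 1 had 0.20, which describes the choice and is no result.

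In size the clusters with 2 or more positions resembled the rest. Their median width was 23 bases in each replicate, with quartiles of 21 and 25, against a median of 22 for clusters with 1 position. The median number of T bases was 6 against 5 in both replicates. The share of clusters with 2 or more positions was 5.41% at 2 T bases and 17.6% at 5 in Rep.A, and 6.61% and 17.3% in Rep.B. It did not climb steadily beyond that, with 7.23% and 10.3% at 9 T bases, and was highest at 12 or more, with 12 of 28 clusters in Rep.A and 10 of 27 in Rep.B. A cluster with 1 T base cannot have 2 positions, so part of this dependence is built into the count.

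**Figure D1:**
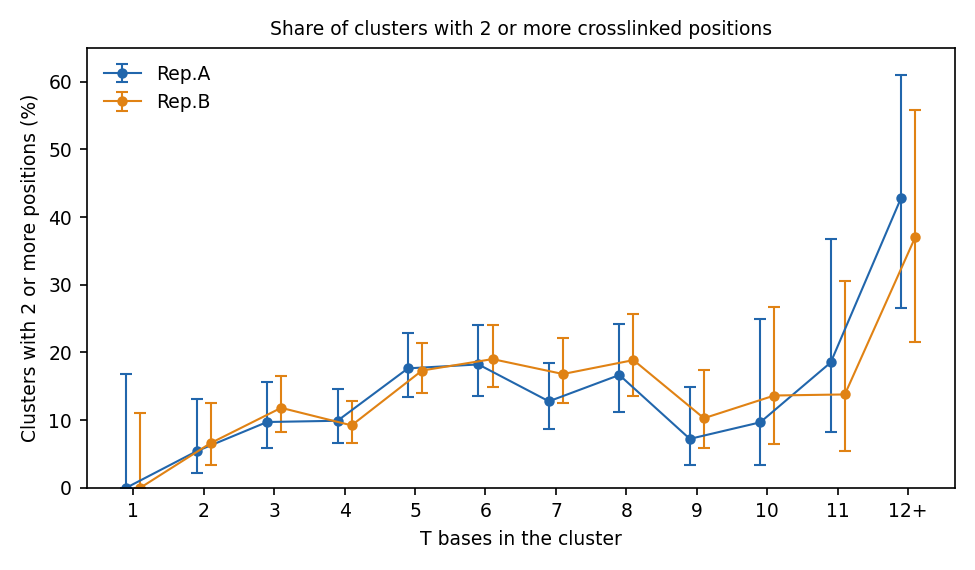
Share of clusters with 2 or more crosslinked positions (vertical axis, percent) by the number of T bases in the cluster (horizontal axis, 12 or more pooled), in Rep.A (blue) and Rep.B (orange), with 95% Wilson intervals. Both replicates are higher at 5 T bases than at 2 to 4, lower again at 9 and highest, with wide intervals, at 12 or more.

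A few were far longer. In Rep.A 4 clusters with 2 or more positions exceeded 60 bases, among them 23429 bases over HMGN1P7, 18702 bases over PSMA2 and 827 bases over NUMA1. In Rep.B there were 3, the longest with 35883 bases over YARS1. Their mean coverage was as low as 0.0061 reads per base in HMGN1P7 and 0.015 in YARS1, so the interval called there was mostly without reads. Of the clusters with 1 position, 2 of Rep.A plus 3 of Rep.B exceeded 60 bases, reaching 413 and 21842 bases, so such intervals were not limited to clusters with 2 or more positions.

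The median coverage was higher in both replicates, while the mean on the log2 scale was not. The median was 14 reads per base against 12 for clusters with 1 position in Rep.A, and 34.3 against 23.7 in Rep.B. On the log2 scale the mean was 0.12 lower in Rep.A (-0.12) and 0.30 higher in Rep.B, which is 0.087 ± 0.30 (mean and SD, n = 2 replicates), less than the spread between replicates. The single cluster of highest coverage in each replicate had 1 position. The maximum was 1927 in Rep.A and 5447 in Rep.B, against 310.6 and 887.4 among clusters with 2 or more. This did not hold for the highest quartile of coverage as a whole. In Rep.A, 47 of 383 clusters in the lowest quartile had 2 or more positions (95% interval 9.36 to 15.9%). In the highest quartile 52 of 346 had (11.6 to 19.2%), so the intervals overlapped. In Rep.B the numbers were 57 of 504 (8.83 to 14.4%) and 100 of 503 (16.6 to 23.6%), with intervals apart.

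The choice used the count of crosslinked positions within a replicate, so the other replicate is an independent measurement of the same place. A cluster was taken as found again when a cluster of the other table overlapped it by 1 base or more on its own strand. In Rep.A, 180 of the 191 clusters with 2 or more positions (94.2%, 90.0 to 96.8) were found again, against 932 of 1191 with 1 position (78.3%, 75.8 to 80.5), where all clusters together gave 80.5%. In Rep.B, 230 of 291 (79%, 74.0 to 83.3) were found again against 886 of 1720 (51.5%, 49.1 to 53.9), with 55.5% over all clusters. The difference was 16.0 points in Rep.A (11.2 to 19.5) and 27.5 in Rep.B (22 to 32.4), 21.8 ± 8.16 (mean and SD of these 2 values). Both values use both replicates and the same overlaps, so they are not independent of each other. Their SD is therefore no spread between independent replicates.

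A count of 2 or more was also seen again. Where not every T counts, it is unknown whether the same T bases were linked in both replicates. Among the Rep.A clusters found again, the counterpart in Rep.B had 2 or more positions for 148 of 180 (82.2%, 76.0 to 87.1) and for 82 of the 932 with 1 position (8.80%, 7.14 to 10.8), against 20.7% over all clusters found again. Starting from Rep.B, the numbers were 148 of 230 (64.3%, 58.0 to 70.3) and 34 of 886 (3.84%, 2.76 to 5.31), against 16.3% over all. The difference was 73.4 points starting from Rep.A (95% interval 66.9 to 78.6) and 60.5 starting from Rep.B (54.0 to 66.5), 67 ± 9.13 (mean and SD of these 2 values). These are 2 directions of the same set of pairs, so this SD too is no spread between independent replicates.

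**Figure D2:**
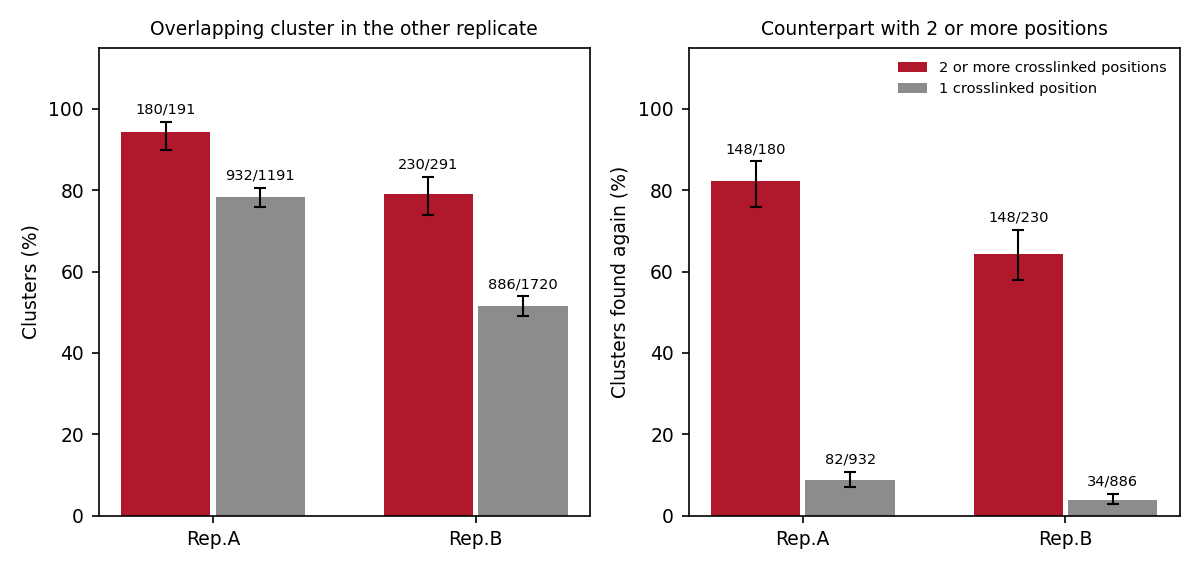
Left, percent of clusters with an overlapping cluster in the other replicate; right, percent of those found again whose counterpart has 2 or more crosslinked positions, for clusters with 2 or more positions (red) and 1 position (grey), with 95% Wilson intervals and counts above the bars. The red bars stand above the grey ones in both replicates, at 82.2% against 8.80% and 64.3% against 3.84% on the right.

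For 796 clusters the start and end were the same in both tables, which removes any difference in extent. Of these pairs, 603 had 1 position in both replicates and 107 had 2 in both. In 55 pairs Rep.A had 1 position where Rep.B had 2, and in 20 pairs it was the reverse. Among Rep.A clusters of this kind with 2 or more positions, 114 of 134 had 2 or more in Rep.B (85.1%, 78.1 to 90.1), against 59 of 662 with 1 position (8.91%, 6.97 to 11.3) and 21.7% over all 796. From Rep.B it was 114 of 173 (65.9%, 58.6 to 72.5) against 20 of 623 (3.21%, 2.09 to 4.91), with 16.8% over all. A change from 1 to 2 positions was more often seen towards Rep.B, the replicate with the higher coverage.

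Since coverage also bears on whether a cluster is called again, the comparison was repeated within quartiles of coverage. In Rep.A the share found again was 83% (39 of 47) against 59.5% in the lowest quartile and 100.0% (52 of 52, 93.1 to 100.0) against 88.4% in the highest. In Rep.B it was 38.6% (22 of 57) against 18.8% in the lowest quartile, and 90.0% (90 of 100) against 72.5% in the highest. In each of the 4 quartiles of each replicate the share was higher for clusters with 2 or more positions, and the interval of the difference lay above 0.

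**Figure D3:**
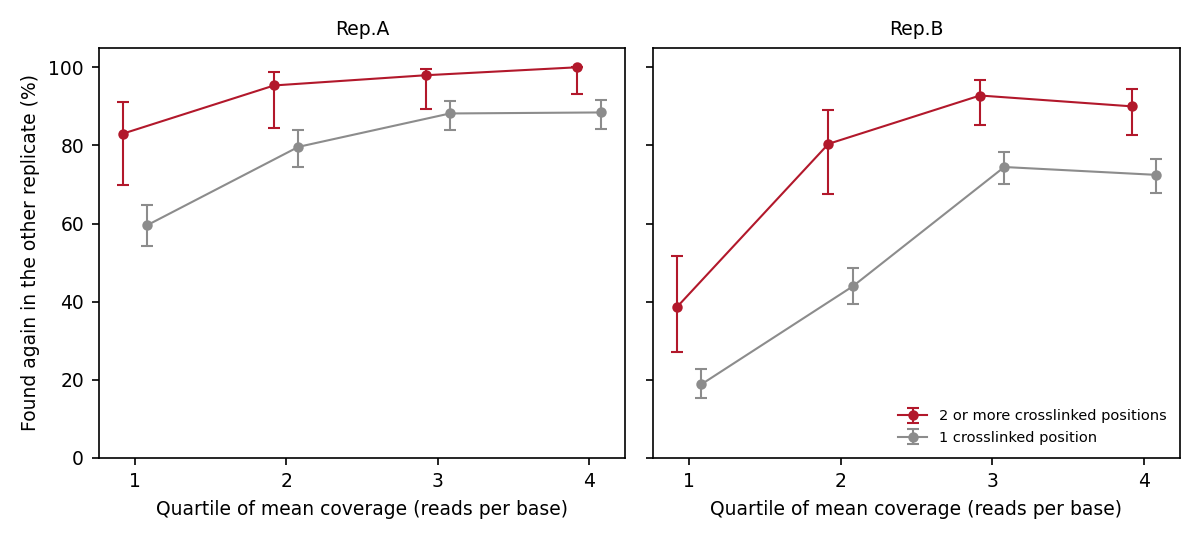
Percent of clusters found again in the other replicate (vertical axis) by quartile of mean coverage within the replicate (horizontal axis, 1 lowest), for clusters with 2 or more crosslinked positions (red) and 1 position (grey), with 95% Wilson intervals. The red points lie above the grey ones in all 4 quartiles of Rep.A (left) and Rep.B (right), and both rise from the first quartile to the third.

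Clusters with 2 or more positions lay more often in the exons of protein-coding genes, read on the strand of the gene. In Rep.A this was so for 117 of 191 (61.3%) against 618 of 1191 (51.9%), with 53.2% over all clusters, and in Rep.B for 160 of 291 (55%) against 782 of 1720 (45.5%), with 46.8% over all. The difference was 9.37 points in Rep.A (1.76 to 16.6) and 9.52 in Rep.B (3.31 to 15.6), 9.44 ± 0.11 (SD, n = 2). Clusters only antisense to a gene showed the opposite, with 5 of 191 (2.62%) against 73 of 1191 (6.13%) in Rep.A and 9 of 291 (3.09%) against 138 of 1720 (8.02%) in Rep.B. The interval of that difference reached 0.068 in Rep.A and lay below 0 in Rep.B (-6.94 to -2). In pseudogene exons the shares were 17.3% against 15.3% and 19.2% against 15.1%, with intervals of the difference that included 0.

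**Figure D4:**
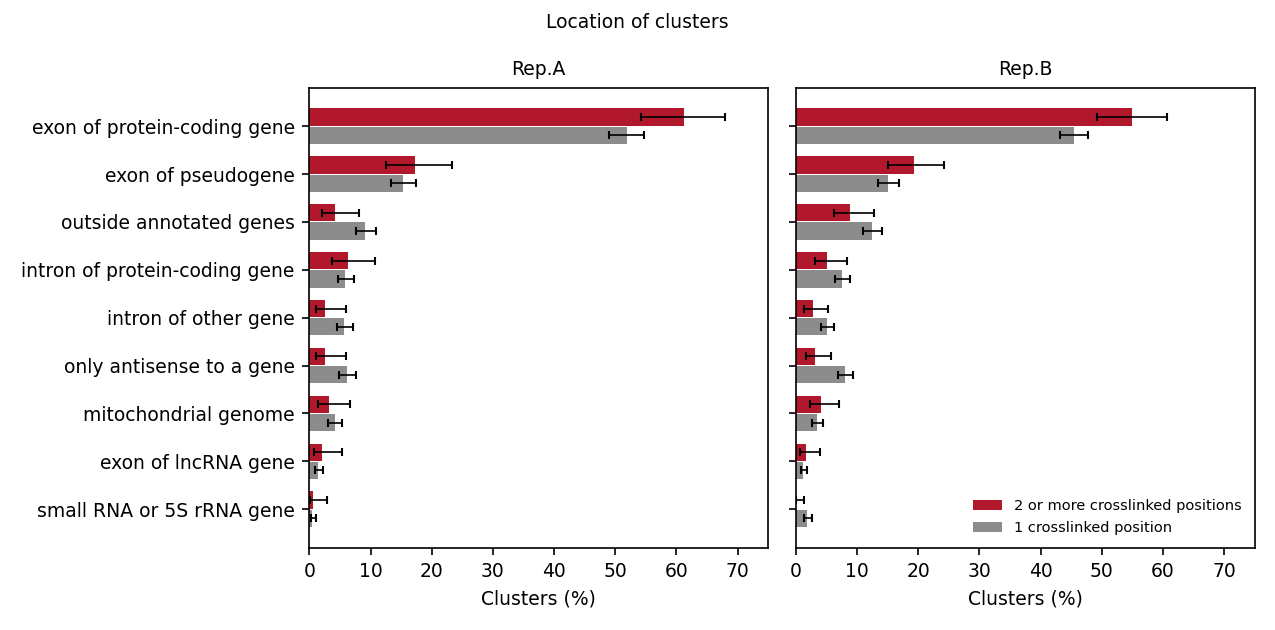
Percent of clusters (horizontal axis) at each location by GENCODE, for clusters with 2 or more crosslinked positions (red) and 1 position (grey) in Rep.A (left) and Rep.B (right), with 95% Wilson intervals. Exons of protein-coding genes hold 61.3% and 55% of the red clusters against 51.9% and 45.5% of the grey, and the classes below them each hold under 20%.

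Genes for small RNA and 5S rRNA held 32 clusters of Rep.B with 1 position and 0 of the 291 with 2 or more, whose interval reached 1.30%. In Rep.A they held 6 and 1. Within protein-coding transcripts, for the transcript with the longest coding sequence, the coding sequence took 69 of 109 clusters with 2 or more positions in Rep.A (63.3%) and 104 of 150 in Rep.B (69.3%), against 59.4% and 58.7% of those with 1. The difference of 3.92 points in Rep.A had an interval that included 0 (-6.22 to 13.3), and that of 10.6 points in Rep.B did not (2.08 to 18.3). The 3′ UTR took 33.9% and 29.3%, against 39.1% and 39.5% of those with 1. The interval of that difference included 0 in Rep.A (-14.3 to 4.94) and lay below 0 in Rep.B (-17.8 to -1.69). The 5′ UTR held 3 and 2 clusters, against 9 of 586 and 13 of 729 with 1 position.

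The share found again differed by location, more so in Rep.B. In exons of pseudogenes, 31 of 33 clusters with 2 or more positions of Rep.A (93.9%) and 39 of 56 of Rep.B (69.6%) were found again. Of those with 1 position there, 76.4% and 50.6% were. In exons of protein-coding genes, 113 of 117 clusters with 2 or more positions of Rep.A and 145 of 160 of Rep.B were found again, against 83.2% and 61.6% of those with 1 position in the same exons. Outside annotated genes it was 7 of 8 and 12 of 26, against 81 of 109 (74.3%) and 78 of 213 (36.6%) with 1 position, and the interval of the difference included 0 in both replicates (-22.2 to 26.8 and -9.09 to 28.9). Some of the latter were clusters on runs of 15 or more A bases. Such a run was present in 6 of 191 clusters with 2 or more positions in Rep.A (3.14%) and 16 of 291 in Rep.B (5.50%), against 0.76% and 2.38% of those with 1. Of the 4 and 15 that were at most 60 bases wide, 0 were found again. At any width it was 1 of 6 and 1 of 16. Clusters with 1 position on such runs were rarely found again too, with 1 of 9 and 1 of 41. Without clusters on such runs, 179 of 185 (96.8%) and 229 of 275 (83.3%) were found again, against 931 of 1182 (78.8%) and 885 of 1679 (52.7%) of those with 1 position.

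CATC was searched on the RNA strand. It was present in 82 of 191 clusters with 2 or more positions in Rep.A (42.9%) and 419 of 1191 with 1 (35.2%), with 36.3% over all clusters. In Rep.B it was present in 121 of 291 (41.6%) and 540 of 1720 (31.4%), with 32.9% over all. The difference was 7.75 points (0.40 to 15.3) and 10.2 points (4.23 to 16.3), 8.97 ± 1.72 (SD, n = 2). CACC, which has no T, did not follow it, with 35.6% against 35.7% (35.7% over all clusters) in Rep.A and 32.6% against 34.2% (34% over all) in Rep.B. Since CATC holds a T, the comparison was repeated within clusters of equal T count, where the CATC difference was 7.07 points on average. Among clusters of 4 to 8 T bases and at most 60 bases it was 3.18 points in Rep.A, with an interval that included 0 (-5.10 to 11.9), and 8.27 in Rep.B (1.44 to 15.3), so the difference in Rep.A was not distinguishable from counting error there. Among sequences found once in the genome it was 3.94.

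Of the 191 and 291 clusters, 148 pairs had 2 or more positions in both replicates. These shared sites held 133 distinct sequences, 96 of them had a sequence found once in the genome, and 114 had the same start and end in both tables. By location 97 lay in exons of protein-coding genes, 24 in exons of pseudogenes and 3 in the mitochondrial genome. In the selected transcripts 61 lay in coding sequence, 29 in the 3′ UTR and 2 in the 5′ UTR. Coverage was higher in Rep.B at 145 of the 148. Where start and end were the same, the median log2 ratio of Rep.B to Rep.A was 1.31 (SD 0.49, 114 sites), close to the 1.39 (SD 0.55, 603 sites) of pairs with 1 position in both.

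**Figure D5:**
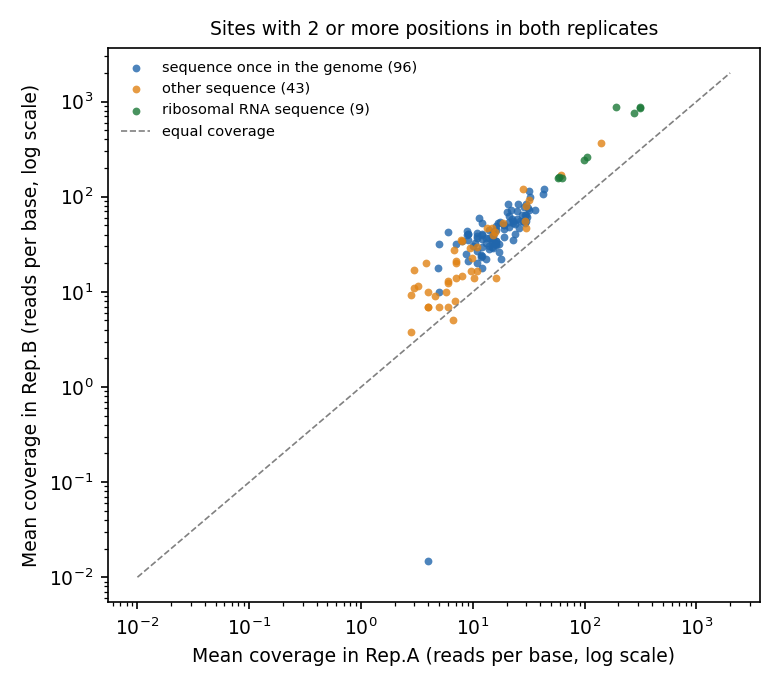
Mean coverage (reads per base, log axes) in Rep.A (horizontal) and Rep.B (vertical) of the 148 sites with 2 or more crosslinked positions in both replicates, coloured by whether the sequence occurs once in the genome (96), elsewhere too or with no copy count (43), or in ribosomal RNA (9); the dashed line marks equal coverage. Of the points, 145 lie above the line, the ribosomal RNA sites are among the highest, and the point far below is YARS1, where the Rep.B interval is 35883 bases long.

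The highest coverage among shared sites belonged to 1 stretch of ribosomal RNA sequence. It was mapped to 9 places, 3 of them in introns of the long non-coding RNA genes ENSG00000278996 and ENSG00000280441 on chromosome 21 and others in introns of NBPF26, NBPF14, NOTCH2 and NOTCH2NLA on chromosome 1. The aligner placed a read with several matches at 1 of them, so these 9 are not separate sites. The 13 bases in capitals were common to all 9, shown here in the longest form and a short one.
ENSG00000278996, chr21:8215436-8215464, plus strand: agccagaggaaactctGGTGGAGGTCCGT
No gene, chr21:8259681-8259697, plus strand: GGTGGAGGTCCGTagcg

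Unlike the mRNA sites, this sequence was rich in G. Coverage over the 9 places ran from 57.6 to 310.6 in Rep.A and from 155.8 to 887.4 in Rep.B. The same kind of sharing was seen between genes and their processed copies. RPLP0, which encodes a ribosomal stalk protein, and RPLP0P6 carried the same sequence, as did TOX4 and TOX4P1, and YWHAZ and YWHAZP3.

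A count of 3 was reached by 6 clusters in Rep.A and by 22 in Rep.B, and no cluster had more. Of these 5 and 16 were found again, and 4 and 10 had a counterpart with 2 or more positions. Both replicates had 3 positions at 3 sites, in UHMK1, MTCYBP16 and HMGB1P10. UHMK1 encodes a serine/threonine kinase, and its site (sequence above) lay in coding sequence with 7 T bases and a coverage of 36 in Rep.A and 73 in Rep.B. MTCYBP16 is a nuclear copy of the mitochondrial cytochrome b gene and HMGB1P10 a copy of HMGB1, whose product is a chromatin protein. Their sequences occurred 2 and 5 times in the genome, so of the sites with 3 positions in both replicates UHMK1 alone had a unique sequence.

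Several genes had 3 positions in 1 replicate and 2 in the other. ATP5F1C, which encodes a subunit of mitochondrial ATP synthase, had 3 in Rep.A at a coverage of 11 and 2 in Rep.B at 39.1. The reverse was seen in EXO1, the gene of a DNA exonuclease, with 2 positions at 25.5 and 3 at 83. NFAT5, a transcription factor of the response to osmotic stress, had 2 at 16.0 and 3 at 49 in its 3′ UTR. CACYBP, which encodes calcyclin-binding protein, had 2 at 19 and 3 at 38, also in the 3′ UTR. In these last 3 genes the higher count was in the replicate with the higher coverage, while in ATP5F1C it was not.

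In other genes the count of 3 met a single position. WARS1, the tryptophanyl-tRNA synthetase gene, had 3 positions in Rep.B at a coverage of 67 and 1 in Rep.A at 30 over the same interval of its coding sequence. HMGB1 had 3 in Rep.B at 8 and 1 in Rep.A at 5, but this sequence occurred 5 times in the genome, so its reads cannot be placed. MT-RNR2, the mitochondrial large ribosomal RNA, had 3 positions in Rep.A over 61 bases at 173.6, where Rep.B had a pair of clusters with 1 position each. Elsewhere in MT-RNR2, Rep.B also had a cluster with 3 positions.

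Disagreement between replicates was larger from the side of Rep.B. Of the Rep.A clusters with 2 or more positions, 32 had a counterpart with 1 and 11 had none, whereas of those of Rep.B 82 had a counterpart with 1 and 61 had none. Median coverage of the Rep.B clusters was 39.2 where both replicates had 2 or more positions, 40.3 where Rep.A had 1, and 10 where Rep.A had no cluster. In Rep.A the order was 15, 11.9 and 3.98. Clusters with no counterpart had the lowest median coverage in both replicates, although individual clusters reached 19 in Rep.A and 200.3 in Rep.B. Only 15 of the 61 in Rep.B lay in exons of protein-coding genes (24.6%), against 97 of the 148 shared (65.5%).

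Among the sites with 1 position in Rep.A and 2 in Rep.B were some of high coverage. OXA1L, which encodes a mitochondrial insertase, had 44.3 in Rep.A and 128.2 in Rep.B. EIF4G2, the gene of a translation initiation factor, had 64 and 120.8. In the other direction, PSMB5, a proteasome subunit gene, had 2 positions in Rep.A at 34.4 and 1 in Rep.B at 104.3. A higher coverage in Rep.B did not always bring a higher count.

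By gene, 124 protein-coding genes of Rep.A had a cluster with 2 or more positions in an exon, 18.9% of the 656 with any cluster there, and in Rep.B 162 of 813 (19.9%). Both replicates had such a cluster at the same site in 100 genes, 17.4% of the 574 with any shared site. A gene with 2 or more such clusters in the same replicate was rare. SRRM1, which encodes a splicing coactivator, TMEM184B and ZNF3 each had 2 in both replicates, at the same places. In SRRM1 the coding sequence sites had coverage of 26 and 9 in Rep.A and of 47 and 41 in Rep.B. In ZNF3, a zinc finger gene, a 3′ UTR site had 14 and 37 and a coding sequence site 11 and 20.0.

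EEF2, the gene of the elongation factor that moves the ribosome along mRNA, had 3 clusters with 2 positions in Rep.B, at 98.8 in the 3′ UTR and at 49.1 and 145.3 in coding sequence. In Rep.A only the 3′ UTR site had 2, at 32.5. ATP5F1C, EXO1, PARP1, PTP4A2, RPL6 and TOX4 had 2 such clusters in Rep.B and 1 in Rep.A. In PARP1, which encodes a poly(ADP-ribose) polymerase active in DNA repair, the shared site had 30 and 56. In RPL6, a gene of the large ribosomal subunit, it had 28.7 and 77.8.

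Gene lists were compared with the 18.9% and 19.9% of all protein-coding genes with a cluster. Of the cytosolic ribosomal protein genes, 5 of 23 had a cluster with 2 or more positions in Rep.A and 4 of 26 in Rep.B, and RPL18, RPL39, RPL6 and RPLP0 had it at the same site in both. RPL18 had 60.9 and 168.2, in a sequence with 4 copies in the genome. Translation factors gave 4 of 11 and 8 of 15, with EEF2, EIF1 and EIF4H shared. Mitochondrially encoded mRNAs gave 3 of 10 and 7 of 11, but only MT-CYB, the cytochrome b gene, shared a site. At these numbers the lists were described and not tested.

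The smaller lists held few such genes. Chaperones gave 1 of 12 and 3 of 13, with DNAJB1 shared, a co-chaperone gene covered at 11 and 27. A list of genes of hnRNP and SR proteins, which bind nuclear RNA, gave 1 of 6 and 3 of 5, with HNRNPC shared at 23.9 and 41. The 3 of Rep.B were HNRNPC, HNRNPK and NCL, the last of which encodes neither an hnRNP nor an SR protein. Glycolysis gave 1 of 5 and 2 of 6, with LDHB shared. The cytoskeleton list gave 0 of 8 and 2 of 9, the latter ACTB and ACTG1. Among Y-box genes YBX3 had such a site in both replicates. YBX1, the gene of YB-1 itself, had 3 clusters in Rep.A plus 2 in Rep.B, of which 0 had 2 or more positions. Over all clusters that share was 13.8% and 14.5%, so 0 among so few does not set YBX1 apart.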

How the data were processed

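Per the labels and the study's methods, adapters were removed with cutadapt 2.10 and Bowtie 1.0.0 mapped the reads to hg38, leaving a read with several matches at 1 of them. The authors ran wavClusteR on Rep.A and Rep.B separately. The deposited tables give counts of crosslinked positions and of T bases, mean coverage as a signal in reads per base, crosslinking efficiency as a fraction and log odds as a score. The authors' efficiency is the positions over the T bases. Efficiency and log odds share the selection, so efficiency is given once as a description and relative log odds serve in an alternative alone. Sequences deposited for minus strand clusters are those of the plus strand and were reverse complemented, after which the T count matched in all 3393 clusters.

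Clusters were placed on GENCODE release 44. Sequences of 16 to 100 bases were counted on both strands of hg38. Members and lists were chosen with earlier results of these data known. The named genes are up to 30 with 2 or more positions in both replicates, those of the clusters with the most positions, and those with 2 or more such clusters in a replicate; other genes, named for contrast, were chosen after their values were seen, and not every gene that qualifies is described. Clusters of a library are not replicates, so shares have 95% intervals and no test was run. The overlap code was tested on simulated data. Alternatives were overlap, width, RNA class, uniqueness, relative log odds, 3 positions, T bases, coverage and each replicate left out. The scripts ran under Python 3.11.15 with scipy 1.17.1, numba 0.67.0, pandas 2.3.3, matplotlib 3.10.9 and numpy 2.4.6.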

Additional observations from a re-analysis of the deposited data

How the results depend on the processing

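Of 67 values recomputed under alternatives, 46 moved by less than the SD of the 2 replicate values (for counts, by less than 1.5 times), 18 moved by more and 3 changed sign. For a difference, the value of 1 replicate always lies within that SD of the mean of 2. Leaving out a replicate could therefore not count as a move for a difference, only as a change of sign. The found-again and counterpart differences need both replicates, so their values under this alternative are counted among the 46 without testing anything. The gene count without Rep.A is among the 18, although it counts genes of Rep.B alone and not shared genes. The difference in exon share has an SD of 0.11 points over the replicates, so small shifts exceed it. It was 9.69 points in clusters of at most 60 bases and 10.2 without mitochondrial or ribosomal RNA sequence. In sequences found once in the genome it was 10.5, and at relative log odds at or above the median 12.5. Within T-base strata it was 8.86, and within coverage quartiles 8.26. Without runs of A, a choice made after the data were seen, it was 10.9. Requiring 3 positions left 3 shared sites and 1 shared gene, gave found-again and counterpart differences of 13.1 and 38.9 points, and turned the exon difference to -9.28 and the CATC difference to -6.77, with 6 and 22 clusters. Sequences found once in the genome left 95 shared sites and a CATC difference of 3.94 points. Relative log odds at or above the median gave found-again, counterpart and CATC differences of 30.8, 79.8 and 6.05 points. Median relative log odds were 0.21 for 2 or more positions against 0.14 for 1 in Rep.A, and 0.27 against 0.18 in Rep.B. This filter therefore shares the selection, and its values are no independent check. Within T-base strata the CATC difference was 7.07. The cause of these shifts was not tested.

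Leaving out each replicate gave -0.12 to 0.30 for log2 coverage, 9.37 to 9.52 points for the exon difference and 7.75 to 10.2 for the CATC difference. The found-again and counterpart differences need both tables, so leaving out a replicate cannot test them. Their ranges, 16.0 to 27.5 and 60.5 to 73.4 points, only repeat the values starting from each replicate. The gene counts under this alternative, 124 and 162, are genes of a single replicate. They are another quantity than the 100 genes with a shared site. The mean log2 coverage was lower in Rep.A and higher in Rep.B, while the median coverage was higher in both. No paired analysis was possible because both libraries belong to 1 group. Exons of RefSeq were not run, since the table used here holds gene spans. Why clusters of 1 replicate were missing from the other was not tested.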
